A study of Drosophila melanogaster with 2 samples.

Results

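HLH3B binding just inside transcribed genes was described here. The sites are peaks of HLH3B chromatin immunoprecipitation whose summit, the base of highest signal, lay 0 to 1000 bp downstream of the nearest annotated transcript start, where that start belonged to a protein-coding gene. Summits lying between a minus-strand coding start up to 1000 bp to the left and a plus-strand coding start up to 1000 bp to the right were left out, since such a summit sits between a divergent pair of promoters. The rule used position only. It kept 338 of the 3846 sites of the conservative set, which is 8.79% (Wilson 95% interval 7.93 to 9.72%), and these downstream sites fell near the starts of 318 genes. The same positional scheme put 920 sites upstream of a non-divergent coding start, 625 between divergent coding starts, 180 at starts of non-coding genes and 1783 more than 1000 bp from any start (distal sites).

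The study profiled the DNA bound by HLH3B in whole Drosophila melanogaster embryos collected 8 to 24 h after laying. The HLH3B-GFP strain carries a transgene for an HLH3B-eGFP fusion protein, chromatin was sonicated to fragments of 200 to 800 bp, and the fusion was precipitated with an antibody to GFP. There was 1 group with 2 biological replicates and no second condition, and a control experiment is named in the labels but was not analysed here. Whole embryos mix all cell types, so a site bound in a few cells and a site bound weakly in many cannot be told apart. The labels used here say nothing of the transgene's promoter or copy number.

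HLH3B is a basic helix-loop-helix protein of the Tal1/SCL type. Such proteins bind DNA as dimers with a class I partner (Daughterless in flies) at E-boxes, written CANNTG, and in vertebrates Tal1 acts in blood, vessel and nervous system development together with GATA factors. The stretch just downstream of a transcript start holds the 5′ untranslated region (5′ UTR) and, in many fly genes, the beginning of the first intron. First introns are a common place for enhancers, and RNA polymerase II can pause close to the start.

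Sequences are shown first for strong intron sites, because introns held most of the downstream sites. All are from the dm6 build (RefSeq Release 6 sequence), written 5′ to 3′ on the strand of the gene, and capitals mark the longest run of A and T bases only. The CG9663 site, at chr2L:3302159-3302259 on the minus strand, and the mub site, at chr3L:21880446-21880546 on the plus strand, both lay in intron 1. mub encodes a KH-domain RNA-binding protein.
CG9663: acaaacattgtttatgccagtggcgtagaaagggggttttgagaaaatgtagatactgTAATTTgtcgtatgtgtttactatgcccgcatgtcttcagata
mub: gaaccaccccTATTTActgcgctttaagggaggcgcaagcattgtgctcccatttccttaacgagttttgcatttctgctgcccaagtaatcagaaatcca
The longest A/T-only run was 6 bp at each site, and the G+C content of the windows was 38.6% and 46.5% in that order. Neither window holds CAGATG, the E-box form tested for Tal1-type proteins below.

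The strongest 5′ UTR sites are shown as 30 bp around the summit, with the longest A/T-only run again in capitals. The CG9147 window is chr2L:6066088-6066117 on the plus strand, the tank window is chr2L:4837856-4837885 on the minus strand and the ph-p window is chrX:2137885-2137914 on the minus strand. ph-p encodes Polyhomeotic proximal, a subunit of Polycomb repressive complex 1.
CG9147: cagtagttcAAAAATTAAgttaacaatata
tank: ctcacTATTcgatcagcaagcactggcaca
ph-p: taaacgttttcATTTTActtatcgtaacat
Windows that do hold a motif are given for comparison. At Mic26-27 (chr3R:16146753-16146782, minus strand, 5′ UTR), amn (chrX:19889576-19889605, minus strand, 5′ UTR) and CG43693 (chr3L:11048095-11048124, minus strand, intron), capitals mark CAGATG or its reverse complement CATCTG. amn, amnesiac, encodes a neuropeptide precursor known for its part in memory. At CG31635 (chr2L:6647240-6647269, minus strand, intron) and CG42327 (chr3R:11656791-11656820, plus strand, intron), capitals mark a GATA word.
Mic26-27: gacagctgtgaaCATCTGttgcacgaatca
amn: gttaggcagtgaCATCTGttgCAGATGaaa
CG43693: gcacgtgtgcgcCATCTGctgtgtggctga
CG31635: gactgatattacAGATAAtaaataacactg
CG42327: tttgagtatagtTGATAGaaatcccaaaac
The amn window holds the E-box in both orientations, and each of the other 4 windows holds its marked motif in 1 place.

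Downstream sites were mostly intronic. The summit lay in an intron of the gene at 218 of 338 sites (64.5%, Wilson 95% interval 59.3 to 69.4%), in the 5′ UTR at 29.9% of sites (25.3 to 35%), in a coding exon at 16 (4.73%, 2.93 to 7.55%), and outside the gene's own transcripts at 3. None lay in a 3′ UTR. For comparison, every base of the genome that the rule could have chosen was classed the same way. Of these 15109489 bases, 27.9% were intron, 21.8% were 5′ UTR and 44.3% were coding exon. Introns thus held 51.8 sites per Mb of such bases (exact binomial 95% interval 45.1 to 59.1), 5′ UTRs held 30.7 (25 to 37.3) and coding exons 2.39 (1.37 to 3.88). The share of sites in coding exons was 39.5 percentage points under the share of bases (difference -39.5, Newcombe 95% interval -41.3 to -36.7). Intervals here and below cover counting error only, since sites of the same 2 libraries are not replicates. The annotation split depended on the replicate: among the 540 sites that the rule finds in replicate 1's own list, 45% were intronic and 48.7% lay in a 5′ UTR, and among the 255 found in replicate 2's own list 69.8% were intronic and 1.18% lay in a coding exon.

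The annotation classes lay at different distances from the start, as did the bases that the rule could have chosen. In the 100 bp nearest the start, 79.5% of those bases were 5′ UTR and 3.99% were intron. From 600 bp to under 700 bp, 5.88% were 5′ UTR and 35.6% were intron. The split of sites by distance is thus partly set by gene structure. Summits ranged from 0 to 994 bp downstream, with quartiles of 140, 489.5 and 726.25 bp. The 5′ UTR sites had a median distance of 75 bp, and 82 of them (81.2%) lay under 200 bp. The intron sites had a median of 652 bp, and 14 of the 218 lay under 200 bp. Coding-exon sites lay between, at a median of 255 bp. Along the kilobase, the number of sites per Mb of bases within reach of the rule was 38.6 in the 100 bp nearest the start (exact 95% interval 30 to 49), 8.63 from 200 bp to under 300 bp (4.72 to 14.5) and 27.1 from 600 bp to under 700 bp. Of all downstream sites, 30.5% lay under 200 bp. That share was 46.5% in replicate 1's own list and 24.3% in replicate 2's, and the median distance in replicate 1's own list was 265.5 bp.

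**Figure D1:**
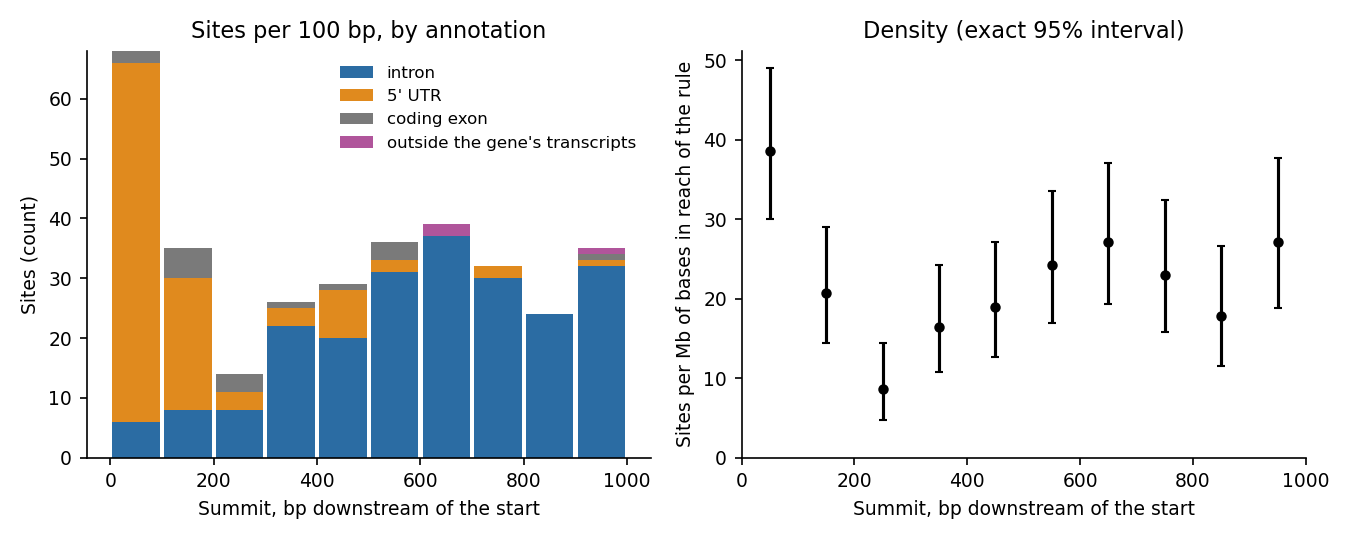
Left, downstream sites (count) per 100 bp of distance from the transcript start, stacked by where the summit lies; right, sites per Mb of bases the rule could have chosen, with exact 95% binomial intervals. Sites in the first 100 bp are mostly in 5′ UTRs (60 of 68), as are 79.5% of the bases in reach there. From 300 bp onward sites are mostly in introns. The lowest density, 8.63 sites per Mb, is from 200 bp to under 300 bp.

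The sites at each end of the range, on both sides of the limit, are given as a description. The members nearest the start were CG4497 at 0 bp with a signal of 419.5, Sobp at 1 bp with 176 and Mic26-27 at 2 bp with 258. Just upstream of a start and so not included were Ccm3 at -2 bp with 77, RpL30 at -2 bp with 201 and RpL24, a ribosomal protein gene like RpL30, at -3 bp with 194. At the far end lay ctrip at 992 bp with a signal of 72, simj at 994 bp with 349 and C3G at 994 bp with 231. Just beyond the limit lay ck at 1001 bp with 134, mtgo at 1008 bp with 106 and Fili at 1009 bp with 355.

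Intron sites lay mostly in the opening intron of the transcript, which the limit of 1000 bp from the start makes likely. Of the 218, 203 (93.1%) were in intron 1 of the transcript that begins at the start and 15 were in intron 2. The summits in intron 1 lay a median of 322 bp past the splice donor that ends exon 1 (quartiles 178 to 488 bp), and 19 were within 100 bp of it. The start codon lay further downstream for 145 of the 218 intron sites and for 246 of all 338 (72.8%), so most summits preceded the coding sequence. The bases in reach of the rule were not counted by intron number or by side of the start codon. These shares are therefore a description of position only. The genes concerned had long opening introns. At the 328 different starts with a downstream site, the first intron was over 1000 bp long at 54% (48.6 to 59.3%), against 46.8% (43.4 to 50.1%) of the 862 starts with an upstream site and 20.5% (19.8 to 21.2%) at the most upstream start of all 13945 coding genes. A site in an intron far from a start needs an intron that reaches there, so this length is partly set by the rule. For the starts with a 5′ UTR site, where that does not apply, the share was 42% (32.8 to 51.8%). Of the starts with a downstream site, 68.6% belonged to a gene with several annotated starts, as did 60.4% of those with an upstream site. Counted once per gene, 26.5% of all coding genes had several starts, and these shares were not tested against each other, since a gene with several starts can be counted more than once.

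Some downstream sites were upstream of a further start. A later start of the same gene lay up to 1000 bp ahead of 48 sites (14.2%), by a median of 313 bp. These were 30 of the 5′ UTR sites (29.7%), 17 of the 218 intron sites (7.8%) and 1 coding-exon site. GstE13, a glutathione S-transferase gene, had such a start 117 bp ahead of its summit, and CG9399 had one 177 bp ahead. Of the 318 genes, 124 (39%) were also nearest to at least 1 site of another class, upstream at 73, distal at 67 and divergent at 16. Most genes (300) had 1 downstream site, 16 had 2, and CG9663 and BNIP3 had 3 each. The third CG9663 site had a signal of 92.5 at 42 bp, and the BNIP3 sites had 79.99 at 188 bp, 24.8 at 904 bp and 9.34 at 684 bp.

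Signal is the authors' own value per peak, on a scale that the sources used here do not state, so levels are read within a list. Values of the replicates are set side by side as listed, and a larger number in either replicate may come from its scale. The median over the downstream sites was 132 (quartiles 94.8 to 223), against 139 over all 3846 sites, 154 over upstream sites, 160.4 over divergent sites and 128 over distal sites. Among downstream sites the median was 142 in introns, 119.8 in 5′ UTRs and 80.8 in coding exons. Of the 338, 161 (47.6%) ranked in the upper part of the whole list, above its middle rank, and 9 were among the top 100.

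The strongest sites had high values in both replicates. They were picked by the combined signal of both replicates, so this is partly set by the choice. At CG9147, 16 bp from the start, the combined signal was 1402, with values of 668 and 740.5 in replicates 1 and 2. Adf1, which encodes a MADF-domain transcription factor, followed with 1339, from 529 and 847, in intron 1 and 785 bp from the start. GstE13 had 1241, from 558 and 679, in the 5′ UTR. In each of these 3 genes the larger number was listed for replicate 2. CG8320 had 1209, from 499 and 722, in a short intron 1 of 138 bp. tank had 1148, from 462 and 692, in the 5′ UTR 129 bp from the start. ph-p had 894, from 469 and 436, 472 bp into a long 5′ UTR exon, and here the larger number was listed for replicate 1.

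Below these, CG9663 had 861 at 921 bp, from 379 and 379, and a second site with 693 at 719 bp, from 292 and 279. mub had 771 at 919 bp, from 333 and 436. LPCAT, a lysophospholipid acyltransferase gene, had 729.5 at 682 bp, from 369 and 364. The listed number was larger for replicate 2 at mub, and the numbers were nearly equal at LPCAT and at the stronger CG9663 site. CG9399 had 713 at 48 bp, from 332 and 382, in the 5′ UTR. CG31635 had 695 at 932 bp, from 363 and 326. wde, windei, whose product is a cofactor of the histone H3K9 methyltransferase Eggless, had 617 at 552 bp, from 357 and 248. The larger number was listed for replicate 1 at both. Ptp4E, a receptor tyrosine phosphatase gene, had 579.9 at 398 bp, from 284 and 295. Dok, an adaptor protein gene, had 577 at 798 bp, from 337 and 236. Of these strongest sites, all were in the thresholded list of each replicate, which their choice by combined signal makes likely, and most lay in an intron. The strongest coding-exon sites were weaker. CG44812 had 200.7 at 372 bp, from 97.8 and 100.7, vig2 had 156 at 6 bp, from 88 and 68, and Got2, the mitochondrial aspartate aminotransferase gene, had 120.1 at 110 bp, from 65.2 and 49.7. The sites outside their gene's transcripts were CG13713 with 283 at 637 bp, UQCR-6.4L with 145 at 969 bp and edin with 87.1 at 679 bp.

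**Figure D2:**
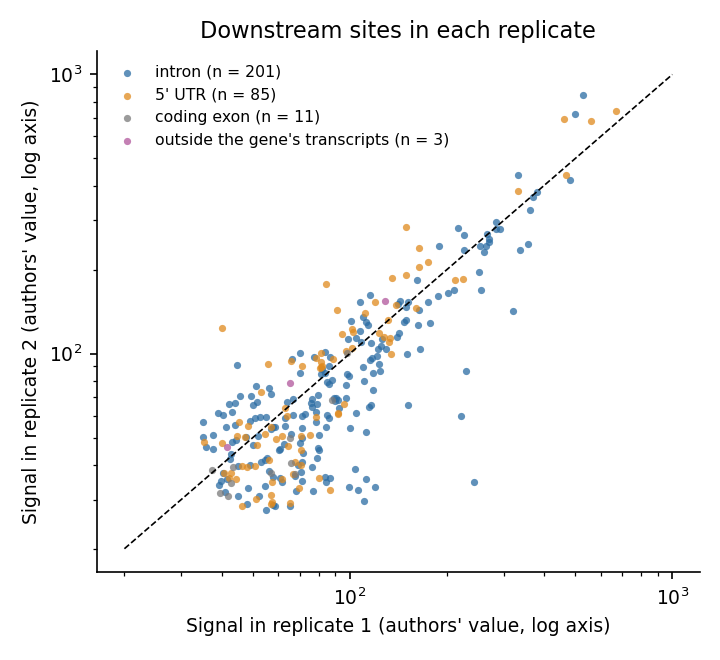
Signal (the authors' value, log axes) of the 300 downstream sites with a candidate summit within 100 bp in each replicate, replicate 1 on the x axis and replicate 2 on the y axis, coloured by annotation; the dashed line marks equal values. The strongest sites sit close to the line or above it, and more of the points, 192 of 300, lie below it.

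Replicate 2's own list held a smaller share of downstream sites than of the other classes compared. Overlap by at least 1 bp with a peak of the thresholded list of replicate 1 was seen at 256 sites (75.7%, 70.9 to 80%), where 74.7% of all conservative sites had it. The thresholded list of replicate 2 held 235 (69.5%, 64.4 to 74.2%), where 78.1% of all sites were held. Both lists held 193 (57.1%, 51.8 to 62.3%), against 63.2% of all sites. In replicate 2 the downstream share was lower than the upstream share by 11.3 points (difference -11.3, Newcombe 95% interval -17 to -5.97), lower than the divergent share (-16.7, -22.4 to -11.2) and lower than the distal share (-5.96, -11.4 to -0.869). In replicate 1 none of these differences had an interval that left out 0 (upstream -4.26, -9.69 to 0.79; divergent 0.54, -5.28 to 6.08; distal 4.29, -0.971 to 9.06). Within the downstream sites, replicate 2's list held 74.8% of intron sites, 65.3% of 5′ UTR sites and 25% of the 16 coding-exon sites. Intron minus distal was -0.72 points in replicate 2 (-7.18 to 4.96) and 7.91 points in replicate 1 (1.7 to 13.2). Sites in replicate 1's list only numbered 63 and in replicate 2's list only 42, where divergent sites had 47 and 116. Upstream sites had 105 and 113.

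**Figure D3:**
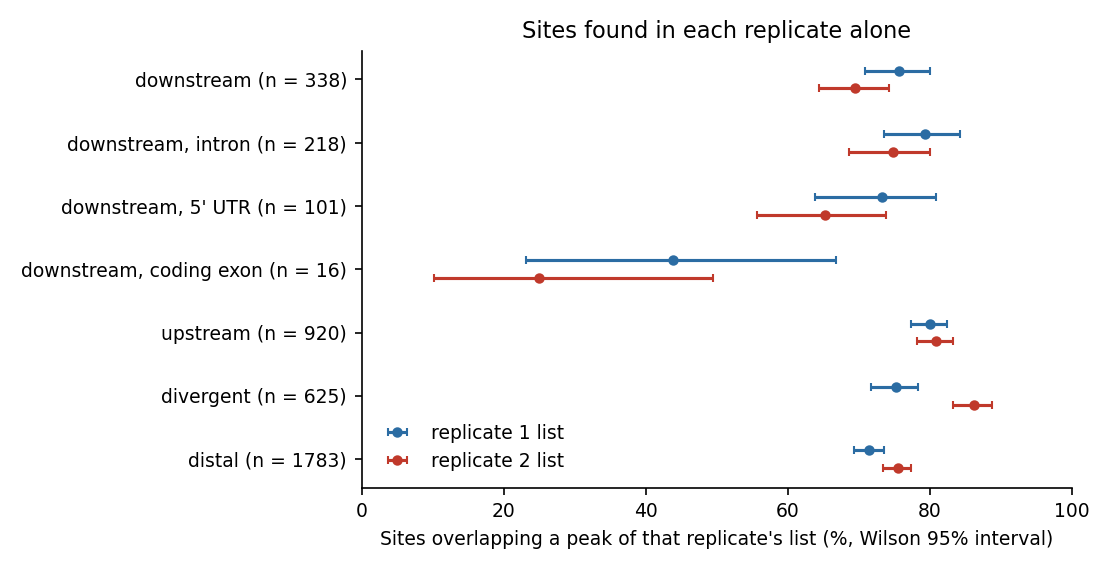
Share of sites (%) overlapping a peak of each replicate's own thresholded list by 1 bp, with Wilson 95% intervals, for downstream sites, their annotation classes and the other positional classes. Downstream sites are at 75.7% in replicate 1 and 69.5% in replicate 2, the reverse of the order in divergent sites (75.2% and 86.2%), and the 16 coding-exon sites are lowest in both.

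In the signal, taking the strongest candidate summit within 100 bp in each replicate's full ranked list, the median was 78.8 in replicate 1 and 65.6 in replicate 2, where divergent sites had 74.7 and 88.1. Replicate 1 had the larger listed number at 192 of the 300 downstream sites with a value in both (64%). The share was 57.6% for upstream sites, 57.6% for distal sites, 36.6% for divergent sites and 54.8% for all sites. Among downstream sites it was 68.7% in introns, 52.9% in 5′ UTRs and 81.8% of the 11 in coding exons. The median log2 ratio of replicate 2 to replicate 1 was -0.19 for downstream sites, 0.2 for divergent sites and -0.06 for all sites. For upstream and distal sites it was -0.0948 and -0.0834. The Spearman correlation of the replicates across these 300 sites was 0.747, a description over sites that share libraries. No candidate was found at 19 sites in replicate 1, at 33 in replicate 2 and at 14 in either. CG5854, with a combined signal of 198, had a candidate in replicate 1 and none in replicate 2. sgl, the UDP-glucose dehydrogenase gene, likewise had 155 combined and 83 in replicate 1. CG7987 had 85.7 in replicate 2 and 118 combined. It overlapped a peak of replicate 1's thresholded list but had no candidate summit within 100 bp there. The scale of the signal in each replicate is not stated, and depth is unknown, so what the replicates' different order comes from was not tested.

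Base composition differed between the summit and the sequence beyond it. G+C in the bases up to 50 bp either side of the summit averaged 37.5% ± 10.7 (SD across 338 sites), against 45.4% ± 10.4 in the window 300 bp further downstream, and was the lower at 237 sites (70.1%). Intron summits averaged 34.2% ± 8.95, 5′ UTR summits 41.9% ± 10.1 and coding-exon summits 55.6% ± 8.38. The bases that the rule could have chosen averaged 37.9% in introns, 42.8% in 5′ UTRs and 53.2% in coding exons. Summits of upstream sites averaged 32.7%, of divergent sites 31.4% and of distal sites 31.9%. The further window lay in a coding exon at 20.1% of downstream sites. Summit minus further window was -7.97 points on average, and summit minus the window 300 bp upstream was -4.81 points. The difference between summit and further window depended on the replicate. It was -1.96 points on average in replicate 1's own list, where summits averaged 41.5% G+C, and -10.6 points in replicate 2's, where they averaged 35.1%.

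**Figure D4:**
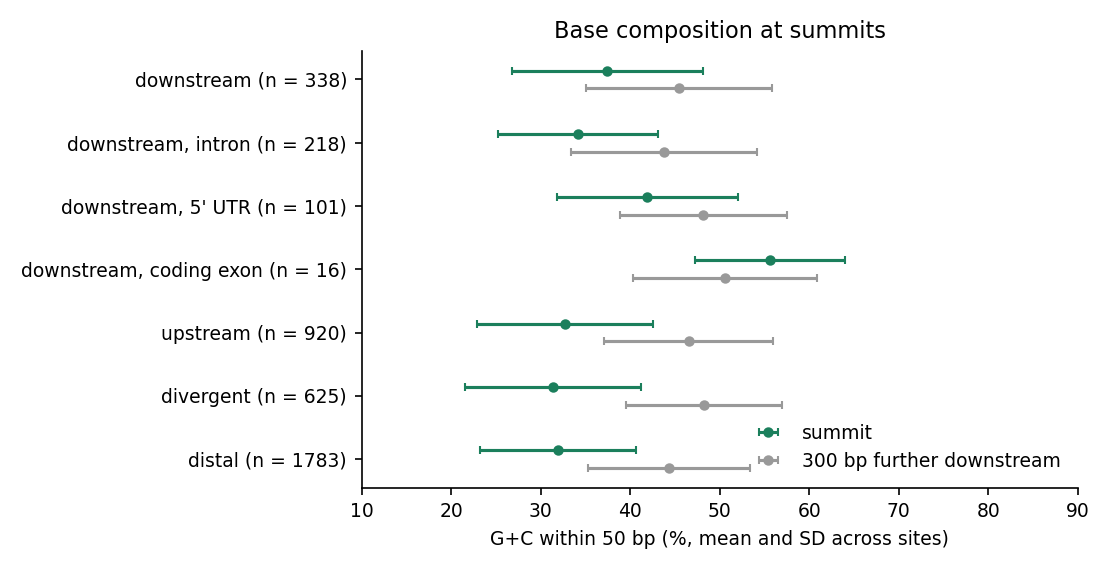
G+C (%) up to 50 bp either side of the summit and 300 bp further downstream, as mean and SD across sites, for downstream sites, their annotation classes and the other positional classes. Every class shown except the 16 coding-exon sites has lower G+C at the summit, and downstream sites have a higher summit mean, 37.5%, than upstream (32.7%), divergent (31.4%) and distal (31.9%) sites.

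Stronger downstream sites tended to be poorer in G+C. The Spearman correlation of signal with G+C was -0.338 across the 338 sites, -0.195 across the intron sites and -0.436 across the 5′ UTR sites, against -0.241 across all 3846. By G+C class, the median signal was 161 under 30% (104 sites), 145 at 30 to 40% (114 sites), 113 at 40 to 50% (69 sites) and 88.2 above (51 sites). The share held by replicate 1's list went from 85.6% to 78.9%, 69.6% and 56.9% over the same classes, and that of replicate 2's from 80.8% to 73.7%, 59.4% and 51%. Over the same classes the sites that are not downstream stood at 78.7%, 72.7%, 67% and 68% in replicate 1 and at 84.5%, 78.4%, 65.3% and 61.6% in replicate 2. Distance had a Spearman correlation of 0.143 with signal. All of these are descriptions across sites that share libraries and local base composition.

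Low values came with close neighbours. Of the 338 sites, 31 (9.17%) had another conservative summit within 250 bp, against 245 (6.37%) of all sites, and all 31 gaps were between 199 and 224 bp, with a median of 202 bp. All 19 downstream sites with a signal under 25 were among them and were weaker than that neighbour. Over the whole set, 96 of the 100 sites under 25 had such a neighbour. For example, Kdm4B, a histone demethylase gene, had summits of 2.2 and 77.3 lying 201 bp apart, and raskol had 4.2 and 79.4 lying 199 bp apart. Of the 14 sites without a candidate in either replicate, 12 were among these. Leaving out every site with a stronger neighbour within 250 bp kept 318 downstream sites and moved the median signal to 140.1 and the mean G+C to 36.8%.

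**Figure D5:**
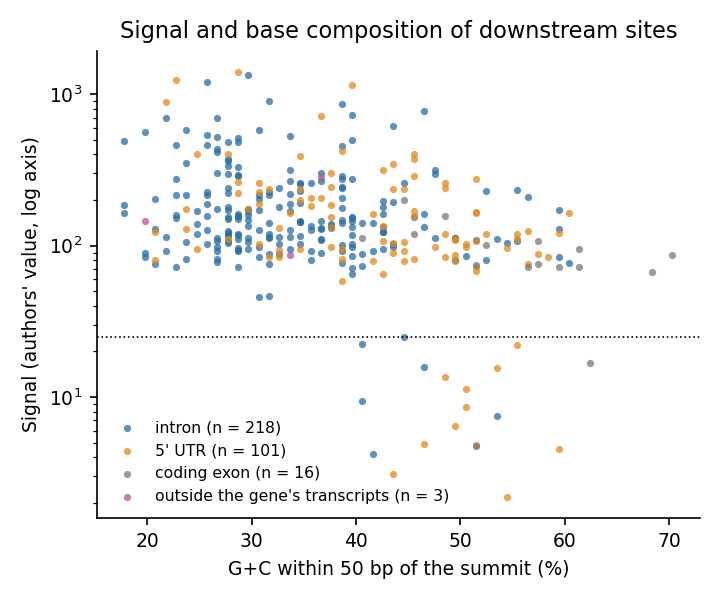
Signal (the authors' value, log axis) against G+C (%) up to 50 bp either side of the summit for the 338 downstream sites, coloured by annotation; the dotted line marks a signal of 25. All 19 points under the line have a stronger summit within 250 bp, and the highest signals lie at low to middling G+C.

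Short words were searched up to 50 bp either side of a summit, and in an equal window 300 bp further downstream, reading either strand. The sign tests count sites as independent, although sites share libraries and some share a gene. Their p-values, like the intervals, cover counting error only. CAGATG was found at 10 of 338 summits (2.96%, Wilson 95% interval 1.61 to 5.36%), against 4.44% further downstream and 2.81% of all 3846 summits. The difference was not past the threshold (exact two-sided sign test, adjusted p = 0.589). E-boxes of any form (CANNTG), a class that takes in CAGATG and also the forms CATATG or, equally, CAGCTG, were at 36.4% of summits and 45% of the further windows (exact sign test, adjusted p = 0.101), and at 33.2% of all summits. That difference passed the threshold under several other choices, among them replicate 2's own list (-12.2 points, exact sign test, adjusted p = 0.0427), though not in replicate 1's. It was -1.77 points with windows of 100 bp either side and -4.14 points against the window 300 bp upstream, where it did not pass (exact sign tests, adjusted p = 0.755 and 0.491). GATA words (AGATA or else TGATA, followed by A or G) were at 20.7% of summits and 15.1% of further windows (exact sign test, adjusted p = 0.184), and at 22.4% of all summits. CAGCTG was at 10.9% of the 5′ UTR summits and 3.21% of the intron summits (intron minus 5′ UTR -7.68 points, Newcombe 95% interval -15.4 to -1.96), and at 2.89% of all summits.

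Of the 16 motifs compared, 2 (12.5%) were more frequent and 1 (6.25%) was less frequent at the summit after Benjamini-Hochberg adjustment. TTAAAA stood at 27.5% of summits and 13.9% of further windows (exact two-sided sign test, adjusted p = 0.000441). AATATT stood at 14.8% and 6.51% (exact two-sided sign test, adjusted p = 0.00403). CACACA went the other way, at 5.92% and 13.9% (exact two-sided sign test, adjusted p = 0.00403). The first and the second are A/T-only words, and mean G+C was lower at the summit (difference -7.97 points). The part of base composition in these motif differences was not tested. All 3 calls were lost in replicate 1's own list, where the differences were 3.33, 2.78 and -0.926 points (exact sign tests, adjusted p = 0.526, 0.526 and 0.909). In replicate 2's own list the differences were 17.6, 11 and -6.67 points. All 3 also missed the threshold in the larger pooled set, and AATATT missed it against the window 300 bp upstream (6.51 points, exact sign test, adjusted p = 0.0615). TTAAAA was at 32.1% of intron and 21.8% of 5′ UTR summits, and the downstream share was lower than that of upstream sites by 10.3 points (-10.3, Newcombe 95% interval -15.8 to -4.45). Distal summits held TTAAAA at 34%, and intron minus distal was -1.93 points (-8.19 to 4.88). All summits held TTAAAA at 35.4%, AATATT at 19.5% and CACACA at 5.59%.

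The remaining motifs did not pass. CATATG was at 2.66% of summits, GAGAG at 10.9%, CAGGTA at 1.18%, TATCGATA at 0.888%, GGTCACAC at 1.18%, TGTTTA at 13.6% and CGATA, which lies within TATCGATA, at 10.9%. Over all summits these stood at 3.77%, 8.48%, 1.51%, 0.988%, 0.546%, 13.8% and 12.3%. On the strand of the gene, AAAAAA was at 13.6% and TTTTTT at 12.7% of summits, and at 14.8% and 16.3% of all. A match is a description of letters and not evidence of binding by a given factor.

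The starts of these genes were searched for core promoter words within 60 bp on each side, over 328 member starts, 862 starts with an upstream site and the most upstream start of all 13945 coding genes. TATAAA, the TATA box word, was at 4.57%, 7.31% and 15.1%. The member share lay under that of all coding genes by 10.5 points (-10.5, Newcombe 95% interval -12.4 to -7.59). Its difference from the upstream share was -2.74 points, with an interval that took in 0 (-5.37 to 0.497). TCAGT, an initiator word, was at 26.8%, 34.5% and 26%, and the member share differed from the upstream share by -7.63 points (-13.2 to -1.71). GAGAG, a word bound by GAGA factor, was at 24.4%, 25.9% and 14.1%. The difference from all coding genes was 10.3 points (5.91 to 15.2), and that from upstream starts was -1.48 (-6.77 to 4.19). CTTTTC, part of the polypyrimidine initiator of translation genes, was at 10.4%, 7.31% and 5.89%. CGGACG and CGAACG, words of the pause button, were at 5.18% and 6.4% of member starts, and at 5.45% and 6.73% of upstream starts. Over all coding starts they were at 2.46% and 3.44%. The member shares differed from the upstream shares by -0.27 points (-2.85 to 2.97) and -0.326 points (-3.2 to 3.19). TATCGATA was at 4.27%, GGTCACAC at 6.71% and CAGCTG at 13.4%, against 6.18%, 5.89% and 10.4% of all coding starts. At upstream starts these stood at 2.9%, 4.18% and 10.7%.

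By gene group, the share of all 13945 coding genes with a downstream site was 2.28%. Among cytosolic ribosomal protein genes it was 5 of 93 (5.38%, Wilson 95% interval 2.32 to 12%), all of them close to the start. RpS29, with its summit at 2 bp, had 165 (replicate values 70.9 and 90.03), RpL27A at 9 bp with 157 (91.7 and 61), and RpL3 at 53 bp with 145 (110 and 29.7), the last in an intron. RpS23 at 16 bp and RpS26 at 21 bp had 119.8 and 110.1. In the lists of single replicates the number was 20 genes in replicate 1 and 2 in replicate 2. Mitochondrial ribosomal protein genes (0 of 73), proteasome subunit genes (0 of 48), tRNA synthetase genes (0 of 19), muscle genes (0 of 22) and cell cycle genes (0 of 27) had none, which allows a share of up to 5%, 7.41%, 16.8%, 14.9% and 12.5% (Wilson upper limits).

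RNA-binding and splicing protein genes had downstream sites at 6 of 42 (14.3%, 6.72 to 27.8%), all in introns. Beside mub, pAbp, the poly(A)-binding protein gene, had 276 at 507 bp (163 in replicate 1 and 127 in replicate 2), and elav, the pan-neuronal splicing regulator gene, had 210.4 at 591 bp (104 and 114). ps had 2 sites, with 169.8 and 154. Sxl, the sex-determination splicing factor gene, had 141 and Rbp9 had 116. Polycomb and trithorax group genes had sites at 4 of 23 (17.4%, 6.98 to 37.1%). Beside ph-p, Trl, which encodes GAGA factor, had 348 at 121 bp in the 5′ UTR (149 and 191) and 139.7 in an intron at 624 bp (66.6 and 68.9). Su(z)12, a subunit of Polycomb repressive complex 2, had 164 at 87 bp, with 40.06 in replicate 1 and 124 in replicate 2, the widest gap between replicates among these. ph-d had 94.4 at 181 bp.

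Insulator and promoter factor genes had sites at 3 of 15 (20%, 7.05 to 45.2%), which were Trl, pita with 134 at 165 bp and CTCF with 108 at 212 bp. Respiratory chain genes had 2 of 80, with Cyt-c-p, the cytochrome c gene, at 462 in an intron 942 bp from its start (226 and 235) and UQCR-6.4L at 145. Ecdysone response genes had 2 of 16, Eip75B with 262 at 45 bp (131 and 132) and Eip78C with 82.1. Of 51 bHLH genes 1 had a site, SREBP, with 133 at 486 bp, and of 12 genes for Tal1-type complex partners 1 did, the co-repressor gene CtBP, with 162 at 857 bp. Single genes stood in translation factors (eIF3h, 1 of 54), the Notch pathway (mam, 1 of 18), blood cells (Pvr, 1 of 19) and glia (Gli, 1 of 15), and 2 of 44 in neurons and synapse (Nrx-1 and elav). These counts are small, and their intervals are wide.

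By chromosome arm, the X held 76 downstream sites, 3R 75, 3L 72, 2R 64 and 2L 51, and chromosome 4 held none. Over all classes these arms held 785, 853, 829, 688 and 688 sites, and chromosome 4 held 3.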

How the data were processed

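HLH3B sites were measured in 2 biological replicates of whole embryos. Per the labels the assembly is dm6, and for the aligner and peak caller the labels name no tool (not given in the sources used here). Each deposited peak list gives the authors' signal value, a score derived from the irreproducible discovery rate (IDR), the −log10 of that rate and, as another column in bp, the summit offset. The conservative set combines both replicates with a −log10 IDR of at least 2. The replicates' own thresholded lists held 3992 and 3546 peaks and their ranked candidate lists 93496 and 86045. Files hold no read counts, so depth is unknown. Starts came from Ensembl 115 (BDGP6.54), without transposable elements, over all 18164 genes, and sequence from RefSeq Release 6 of the same build. Nearest starts, annotation classes, G+C and motifs were computed with Python 3.11.15, numpy 2.4.6, scipy 1.17.1 and pandas 2.3.3. Shares have Wilson and differences Newcombe 95% intervals, and motifs an exact two-sided sign test with Benjamini-Hochberg adjustment over 16 motifs. That test was checked on simulated data. Named genes are those of the 15 strongest sites, the 3 strongest per annotation class and gene list, those at the limits of the range, those with most sites and examples of those lacking a candidate in 1 replicate. An item that this rule names is not reported here. CG42327, amn, CG43693, Kdm4B and raskol, shown for a motif or a close neighbour, were chosen after their values were seen. The members and the 18 gene lists were chosen with earlier results of these data known. Of the list symbols, 3 did not match and were not used here.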

Additional observations from a re-analysis of the deposited data

Results flagged for a closer look

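The authors' list that compares the 2 replicates held 69 candidates past the threshold that are absent from the conservative set, and 7 of these lay downstream of a coding start. They are signal in data that the comparisons did not use, and no control was used to set them against. The candidate at wdb, a gene for a regulatory subunit of protein phosphatase 2A, had a signal of 178.45, 55 bp from the start. CG42788 had 101.34 at 26 bp and CG4297 had 100.16 at 264 bp. Pgk, the phosphoglycerate kinase gene, had 80.784 at 25 bp, tara had 63.671 at 545 bp, isoQC had 33.675 at 88 bp and Nuak had 25.268 at 94 bp. All but CG4297, which lay in an intron, lay in a 5′ UTR.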

How the results depend on the processing

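Results are compared with the same count under other choices. With starts of coding genes only, CANNTG at summits was -9.46 points against the further window and passed the threshold. With the larger pooled set, 692 sites near 623 genes were downstream, with 42.3% under 200 bp, a median signal of 86.1, 61.4% in replicate 1's list and 37.1% in replicate 2's, 48.4% in introns, 43.1% in 5′ UTRs and 7.8% in coding exons, 10 cytosolic ribosomal protein genes and 10 RNA-binding protein genes. There the motif differences for TTAAAA (4.48 points), AATATT (4.33) and CACACA (-2.75) missed the threshold and CANNTG (-8.09) passed it. The 169 strongest sites, near 164 genes, had 24.9% under 200 bp, a median signal of 223, 96.5% and 95.3% in the lists of replicates 1 and 2, 71% in introns, 1.18% in coding exons, TATAAA at 2.4% of starts and 3 cytosolic ribosomal protein genes, and GATA words (11.2 points) and CANNTG (-14.2) passed. A limit of 500 bp kept 172 sites, with a median of 144.5 bp and 59.9% under 200 bp. Candidates within 50 bp were found at 85.2% of sites in replicate 1 and 81.4% in replicate 2. With the window 300 bp upstream, AATATT (6.51 points) missed the threshold. From 250 bp before to 50 bp after the start, TATAAA was at 21.9%, TCAGT at 37.8%, GAGAG at 47% and CTTTTC at 18.9%, since the window is longer. Leaving out close weaker summits, an alternative chosen after seeing the data, CANNTG was -10.1 points and passed.

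With each replicate's own list in place of the combined set, the downstream sites numbered 255 to 540 near 241 to 499 genes, the median distance was 265.5 to 530 bp, 24.3 to 46.5% lay under 200 bp, the median signal was 65.8 to 78.7, introns held 45 to 69.8%, 5′ UTRs 28.2 to 48.7% and coding exons 1.18 to 5.37%, and cytosolic ribosomal protein genes numbered 2 to 20. The motif differences were 3.33 to 17.6 points for TTAAAA, 2.78 to 11 for AATATT, -6.67 to -0.926 for CACACA and -12.2 to -5.37 for CANNTG. Replicate 2's list held 38% of the sites of replicate 1's list, and replicate 1's list held 76.1% of those of replicate 2's. The cause of these differences was not tested. Keeping divergent pairs gave 408 downstream sites, and judging pairs by any gene type gave 332, where the main rule gave 338. Both counts were within the wide limit used for counts. Coding transcripts only, annotation over all genes, an overlap of 50%, a window of 100 bp either side and a looser gene assignment also left their results within the limits used. No paired analysis was possible because there is only 1 group. Depth and the scale of the signal are unknown, which limits any comparison of levels between the replicates.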
